A study of Mus musculus with 2 samples.

Results

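Acta2, Tagln, Myl9, Tpm1, Tpm2 and Cnn1 are 6 genes of the contractile apparatus of smooth muscle. They were taken by gene symbol, each matched 1 row, and they make up 6 of the 28692 genes in the deposited matrix. The matrix comes from neural stem cells of C57/Bl6J mice, cultured out of the subventricular zone, a germinal layer along the lateral ventricles of the brain, and counts unique molecular identifiers (UMIs, 1 per captured transcript) in single cells with 10x Genomics 3′ chemistry. The labels name 1 vehicle (DMSO) library and 1 library given 1 µM of 20HC, an oxysterol; in both, the growth factors EGF and FGF had been withdrawn 3 days before. The control's treatment field also mentions 20HC, and its group was taken from its title. Barcodes end in 1 or 2 with nothing tying either number to a library, so no treatment comparison was made and the pooled matrix was treated as 1 sample; barcode sets 1 and 2 are shown side by side, with no condition attached.

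Smooth muscle α-actin, encoded by Acta2, forms thin filaments along which myosin pulls. Tropomyosins (Tpm1, Tpm2) lie along those filaments, Myl9 is the regulatory light chain whose phosphorylation switches on smooth muscle myosin, and calponin (Cnn1) and transgelin (Tagln, also called SM22α) bind actin. In the brain these genes are best known from the mural cells of vessels, smooth muscle cells and some pericytes, and fibroblasts that acquire stress fibres, termed myofibroblasts, also express them. Serum response factor, which binds a DNA element called the CArG box, and TEAD factors, which bind the MCAT element CATTCC, are textbook activators of this gene set.

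Sequence upstream of the members is shown because such elements are known from the promoters of smooth muscle genes. RefSeq upstream sequence (GRCm38.p6, the assembly of mm10) matched 5 of the 6 members, all but Tagln, and the 250 bases before each RefSeq start were searched on both strands. A strict CArG box, with only A or T at its 6 middle positions, was found in 1 of the 5 windows, that of Myl9, and in 482 of all 32851 windows (1.47%). Letting up to 1 G or C into the middle, a form that includes every strict match, added Acta2 and gave 2 matches each in Acta2 and Myl9; 2823 windows (8.59%) held this form. CATTCC occurred once each in Acta2 and Tpm1, both times on the opposite strand and so printed as GGAATG, and in 4153 windows (12.6%). Neither element was found in the windows of Tpm2 and Cnn1. The lines give these matches in capitals, each 5′ to 3′ on the gene's strand: 30 bases around a match for Acta2 and Tpm1, and for Myl9 the 206 bases that lie before its GENCODE gene model. The first Acta2 match starts 84 bases before the RefSeq start, the second 34 and the CATTCC match 146; the Myl9 matches start 161 (strict) and 99 bases before, and the Tpm1 match 56. The RefSeq starts of all 5 genes lie inside their GENCODE gene models, which begin farther upstream.
Acta2, looser CArG box, chr19:34255438-34255467, minus strand: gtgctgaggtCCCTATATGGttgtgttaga
Acta2, looser CArG box, chr19:34255388-34255417, minus strand: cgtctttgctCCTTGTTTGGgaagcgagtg
Acta2, CATTCC, chr19:34255502-34255531, minus strand: gagcagaacagaGGAATGcagtggaagaga
Myl9, strict and looser CArG box, chr2:156775214-156775419, plus strand: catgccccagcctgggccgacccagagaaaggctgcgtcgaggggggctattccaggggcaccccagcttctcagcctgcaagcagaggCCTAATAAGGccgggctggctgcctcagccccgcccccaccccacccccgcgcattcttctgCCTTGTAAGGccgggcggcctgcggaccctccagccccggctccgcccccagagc
Tpm1, CATTCC, chr9:67049252-67049281, minus strand: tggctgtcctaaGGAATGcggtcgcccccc
A match is a run of letters, not a measured binding site.

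In GENCODE M21 (GRCm38) Acta2 (ENSMUSG00000035783) lies on chromosome 19, 34241090 to 34255590, minus strand. Myl9 (ENSMUSG00000067818) lies on chromosome 2, 156775420 to 156781658, plus strand, and Tpm2 (ENSMUSG00000028464) on chromosome 4, 43514711 to 43523765, minus strand. The other 3 are on chromosome 9, Cnn1 (ENSMUSG00000001349) at 22099216 to 22109630, plus strand, Tagln (ENSMUSG00000032085) at 45929619 to 45936058, minus strand, and Tpm1 (ENSMUSG00000032366) at 67022590 to 67049406, minus strand. Tpm1 has 21 annotated transcripts, and the 3′ counts do not tell its isoforms apart. Tagln overlaps 2 genes on the other strand, Pcsk7 at its 3′ end and the antisense gene Gm48529, and the sources used here do not state whether counting used strand. Pcsk7 had 2 UMIs in the cells where Tagln was most abundant, against 1369 of Tagln; Gm48529 was not analysed here.

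After filtering and removal of called doublets, 13028 of 14685 barcodes were kept. Set 1 kept 9630 cells (median depth 2822 UMIs) and set 2 kept 3398 (2888.5). The raw sets shared 48 barcode sequences. Clustering, from which the members and 30 further contractile genes were held out, gave 11 clusters, named here by class and leading gene. There were 2 astrocyte-like clusters (Pcp4, 3656 cells; Cldn10, 3298), 2 cycling-like (Hist1h1b, 1434; Cdc20, 1090), 1 each of oligodendrocyte precursor-like or OPC-like (Pllp, 1249), neuroblast-like (Mfng, 1129), fibroblast-like (Tbx18, 221), ependymal-like (Tmem212, 52) and microglia-like cells (Ccl6, 34), and 2 unnamed ones, 1 led by Car9 (316) and 1 called cluster 8 here (549). The progenitor markers named no cluster, although the labels call the cells neural stem cells; the 8 markers summed to 1711 counts per 1e+06 UMIs (CPM) outside the fibroblast-like cluster. All intervals are 95%, exact Poisson for CPM and Clopper-Pearson for shares, and cover counting error only, since there were no replicates. No p-values were computed.

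The 6 genes were most abundant in the fibroblast-like cluster, which was led by Tbx18, Col3a1, Vtn and Col1a1. It held 1.70% of the kept cells (171 of set 1, 50 of set 2) and 2.54% of their UMIs, but 46.2% (45.5 to 46.9%) of the members' 21191 UMIs. Together the members reached 10047 CPM there (9849 to 10248). By a rule of at least 1.5-fold, alike in direction in either barcode set and with the comparison level outside the Poisson interval, 6 of 6 members were called higher than in all other cells, where 11.7% of 13037 measured genes were called higher and 19.1% lower. The members' median log2 ratio was 4.30, and that of all measured genes -0.18 (CPM + 5). Leaving out the 22 cells with most member UMIs, a step chosen after seeing the data, lowered the joint level to 3862 CPM and left 5 members called; Cnn1 lost its call, at 37.3 CPM in all, 44.5 in set 1 and 6.25 in set 2, where the other cells were at 7.91.

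Acta2, the filament actin, had 4474 UMIs in the fibroblast-like cells, 4592 CPM (4459 to 4729), with 4126 in set 1 and 6432 in set 2. All other cells were at 26.8 CPM, 26.4 in set 1 and 27.9 in set 2. The ratio was 171-fold, the fifth largest log2 ratio of the 13037 genes, and 81.7% of all Acta2 UMIs lay in this cluster. Below it came the ependymal-like cells at 154 CPM (98.4 to 229) and cluster 8 at 130 (105 to 160), whose intervals overlap, then the astrocyte-like cells led by Pcp4 at 54.0 (49.7 to 58.5) and by Cldn10 at 17.9 (15.4 to 20.7). Neuroblast-like cells were at 13.4 (9.26 to 18.7), which overlaps the interval of the Cldn10 cells, and the OPC-like, Car9 and both cycling-like clusters lay between 4.62 and 6.64, with overlapping intervals. The 34 microglia-like cells had no Acta2 UMI, with an interval that reaches 19.99 CPM. The ependymal-like value was uneven between sets, 198 CPM in set 1 and 24.9 in set 2, and was not called. It came from 24 UMIs, 19 of them in 2 of the 52 cells.

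Tagln, the actin-binding protein transgelin, followed the same order at the top. It stood at 1405 CPM (1332 to 1482) in the fibroblast-like cells, 1258 in set 1 and 1987 in set 2, against 18.4 elsewhere (14.5 and 29.1), a 76.4-fold ratio, and 66.6% of its UMIs lay in the cluster. Next were the ependymal-like cells (76.8 CPM, 39.7 to 134) and cluster 8 (54.9, 38.9 to 75.4), not separated by their intervals, then the Pcp4 (32.2) and Cldn10 (21.1) astrocyte-like cells. The Car9 cluster was at 12.8 and the neuroblast-like, OPC-like and cycling-like clusters were at 3.15 to 4.34, with none in the microglia-like cells. The sets were uneven for Tagln outside the fibroblast-like cells too: set 2 was above set 1 in the Pcp4 cells (60.1 against 22.3 CPM), the Cldn10 cells (32.5 against 16.9) and cluster 8 (105 against 49.6), and below it in the ependymal-like cells (24.9 against 94.7), the Cdc20 cells (2.96 against 4.92) and the OPC-like cells (2.87 against 3.89).

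Cnn1, calponin, was the least often detected member, with a UMI in 31 fibroblast-like cells (14.0%, 9.73 to 19.3%). Its level there, 165 CPM (141 to 193; 157 in set 1, 198 in set 2), was 14.8-fold that of the other cells (11.2). The ependymal-like cells came close, at 128 CPM (78.2 to 198; 77.5 in set 1, 274 in set 2), and the intervals overlap. The Car9 cluster followed at 72.2 (55.3 to 92.5) and cluster 8 at 47.7 (32.8 to 67.0), then Cldn10 astrocyte-like cells at 20.6 and Pcp4 cells at 5.41. The OPC-like, neuroblast-like and cycling-like clusters were at 1.10 to 4.15, and the microglia-like cells had no UMI. Of its UMIs 27.9% lay in the fibroblast-like cluster.

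Myl9, the myosin light chain, had the lowest share of its UMIs in the fibroblast-like cluster of the 6 members. The fibroblast-like cells had 1049 CPM (986 to 1115), 879 in set 1 and 1722 in set 2, against 89.5 elsewhere, an 11.7-fold ratio, with 23.4% of its UMIs in the cluster. The Cldn10 astrocyte-like cells came next, at 159 CPM (151 to 166) with equal values in both sets (159 and 158). Cluster 8 (130), the Pcp4 cells (114) and the ependymal-like cells (96.0) followed, and the intervals of neighbours in this order overlapped, those of the Cldn10 cells and cluster 8 included. Cycling-like, neuroblast-like and microglia-like cells were at 14.7 to 21.7, OPC-like cells at 31.5 and the Car9 cluster at 54.7.

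Both tropomyosins were called higher in the fibroblast-like cells, but they differed elsewhere. Tpm1 stood at 2354 CPM (2258 to 2452; 2301 in set 1, 2561 in set 2) against 144, 16.3-fold, with 29.8% of its UMIs in the cluster, and its lowest cluster was still at 87.6 CPM. Cluster 8 (244) and the Car9 cluster (233) were next, then OPC-like (180), ependymal-like (166), Pcp4 (165) and Cldn10 (150) cells, with microglia-like (114), neuroblast-like (98.3) and cycling-like cells (93.8 and 87.6) lowest. Below the fibroblast-like cells, neighbours in this order had overlapping intervals except the Car9 and OPC-like clusters and the 2 astrocyte-like ones. Tpm2 stood at 481 CPM (439 to 527; 436 in set 1, 661 in set 2) against 14.9, 32.3-fold, with 45.7% of its UMIs in the cluster. Cluster 8 came next at 40.5 (26.9 to 58.5), then the Hist1h1b cycling-like (27.5), ependymal-like (25.6), Cdc20 cycling-like (25.2), neuroblast-like (24.0), Car9 (21) and microglia-like cells (16.3), all with overlapping intervals between neighbours. Tpm2 was at 13.9 in Cldn10 astrocyte-like cells, at 10.8 in OPC-like cells and lowest in Pcp4 astrocyte-like cells, at 4.51 (3.34 to 5.94), an interval that overlapped only that of the microglia-like cells, which had 3 UMIs.

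**Figure D1:**
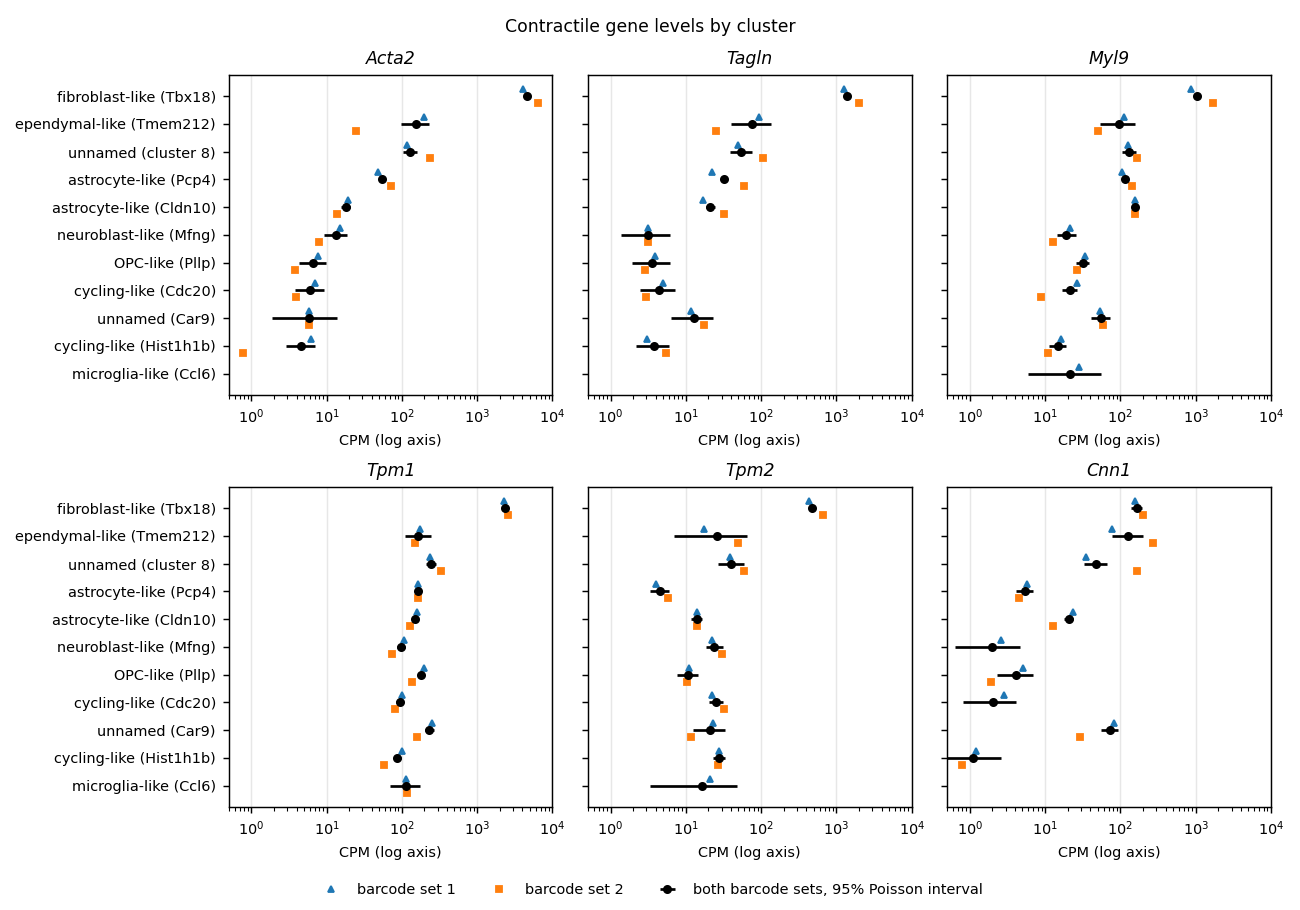
Level of each gene (CPM, log axis) in the 11 clusters, with barcode set 1 as triangles, set 2 as squares and both together as circles with the exact Poisson 95% interval; values of 0 are not drawn. The fibroblast-like cluster is the highest for all 6 genes, at 4592 CPM for Acta2 and 165 for Cnn1, where the ependymal-like interval (78.2 to 198) overlaps it.

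Across the 11 cluster levels the members' profiles ran most closely together for Acta2 and Tagln (Pearson r of log2(CPM + 5), 0.98) and least for Tpm2 and Cnn1 (0.58). The points share depth and the fibroblast-like maximum, so these r values describe the profiles and nothing more. Among 11229 other genes with at least 100 UMIs, the 5 most like each member were listed by the same r. Parva, an actin-linked adhesion protein, came first for Acta2 (0.95) and for Tagln (0.96), and Traf5 and Igfbp3 were on both lists; Tpd52l1 and Tceal8 completed that of Acta2, and Slc9a3r2 and Gjb6 that of Tagln. Ehd2 led for Myl9 (0.97), ahead of Slc9a3r2, Fah, Lhfp and Parva. Cyp1b1 (0.97) and the actin-binding Cald1 (0.97) led for Tpm1, ahead of Bmp7, Igfbp3 and Lamb1. Tpm2 was nearest to Cxcl12 (0.93), Tinagl1, Fibin, Tbx18 and Lmcd1, and Cnn1 to Timp1 (0.95), Aga, Igfbp2, D330050G23Rik and Ccdc102a. Aga, Igfbp2 and Ccdc102a peaked in the ependymal-like cells and D330050G23Rik in the Car9 cluster; the other genes named here peaked in the fibroblast-like cells.

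Within the fibroblast-like cluster the members were very unevenly spread over cells. Acta2 ranged from 0 to 421 UMIs per cell with a median of 1, and 52.9% of the cells (46.1 to 59.7%) had at least 1; in neuroblast-like cells, a class not known for Acta2, the share was 2.83%. The medians were 4211 and 2220 UMIs per cell, and with every cell thinned to 1000 UMIs the shares were 36.7% and 1.65%. The 22 cells with most Acta2 held 74.4% of its UMIs, and the 22 with most Cnn1 held 94.4% of Cnn1. For Col1a1, a collagen chain of fibroblasts, the corresponding 22 cells held 26.7%, the median was 11 UMIs and 88.7% of the cells had at least 1. Tpm1 was found in 87.3% of the cells (59.6% after thinning; 9.24% in thinned neuroblast-like cells), Tpm2 in 62.4% (29.8%), Myl9 in 49.3% (32.6%) and Tagln in 45.2% (33.5%). Acta2 had a UMI in 52.6% of set 1 and 54% of set 2 cells, with a median of 1 in each, and its 90th percentile was 48 UMIs in set 1 and 88.5 in set 2.

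The number of members found in the same cell was counted next. Of 221 fibroblast-like cells 120 (54.3%, 47.5 to 61.0%) had UMIs of 3 or more members, 69 had 5 or 6 and 30 had all 6, while 11 had none. Among the 12807 other cells 308 (2.40%) had 3 or more, 5 had 5 and none had all 6. Thinned to 1000 UMIs, with 3 and 446 shallower cells left out, the shares were 33.5% (27.3 to 40.2%) and 0.210% (0.137 to 0.308%). A share with 3 or more also depends on how often each member is found by itself. These shares therefore do not show that the members keep to the same cells. Each of the 31 cells with Cnn1 also had Acta2, Myl9, Tpm1 and Tpm2, and 30 had Tagln. Of the 190 cells without Cnn1, 45.3% had Acta2, 41.1% Myl9, 85.3% Tpm1, 56.3% Tpm2 and 36.8% Tagln. The median depths were 4642 UMIs with Cnn1 and 4067.5 without.

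**Figure D2:**
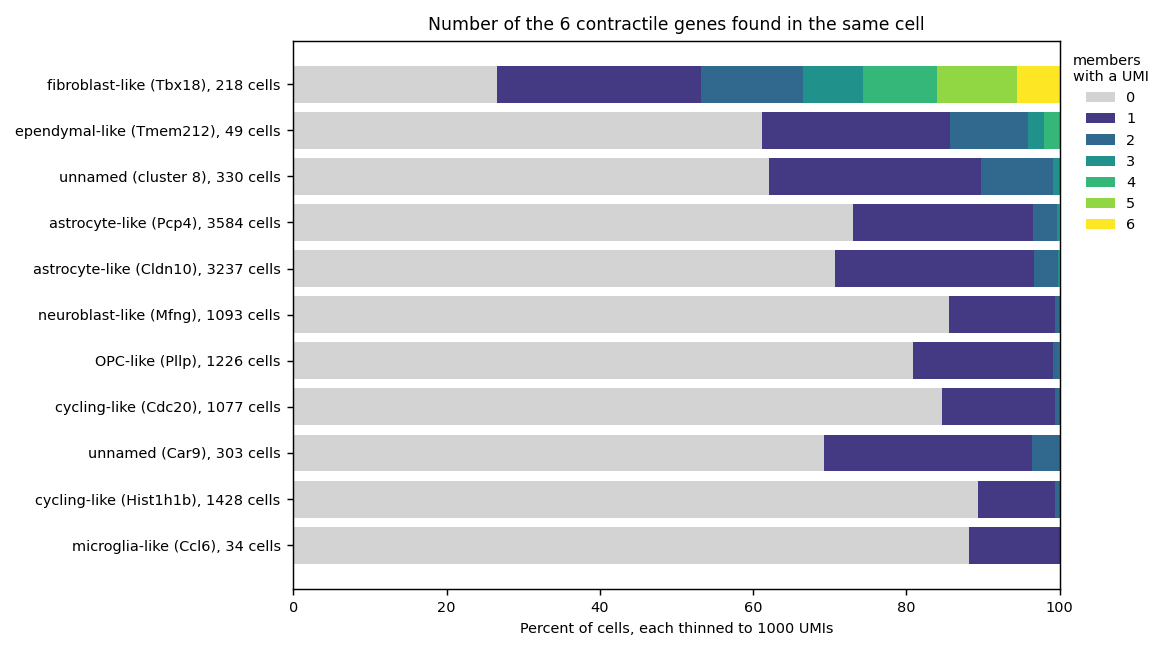
Percent of cells in each cluster with UMIs of 0 to 6 of the contractile genes, every cell thinned to 1000 UMIs. Of the fibroblast-like cells 33.5% have 3 or more; in the cycling-like, neuroblast-like, Car9 and microglia-like clusters no thinned cell does.

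Over the 221 cells all 15 pairs of members had a positive Pearson r of log-scaled counts, from 0.55 (Tpm2 and Cnn1) to 0.88 (Acta2 and Tagln), with a median of 0.64. For Acta2 and Tagln r was 0.88 in set 1 and 0.89 in set 2, and 0.82 after thinning. Acta2 and the fibroblast matrix genes Col1a1 and Dcn ran the other way, with r of -0.32 and -0.42 (thinned counts, -0.20 and -0.24). For Col3a1 r was 0.08 (thinned 0.05). It was 0.40 for Vtn, a pericyte marker in brain (thinned 0.34), and 0.26 for the mural marker Pdgfrb (thinned 0.01). For Tbx18, which leads the cluster, r was 0.01 (thinned 0.03). These points are cells of 1 cluster that share its depth and total, and r is given as a description.

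**Figure D3:**
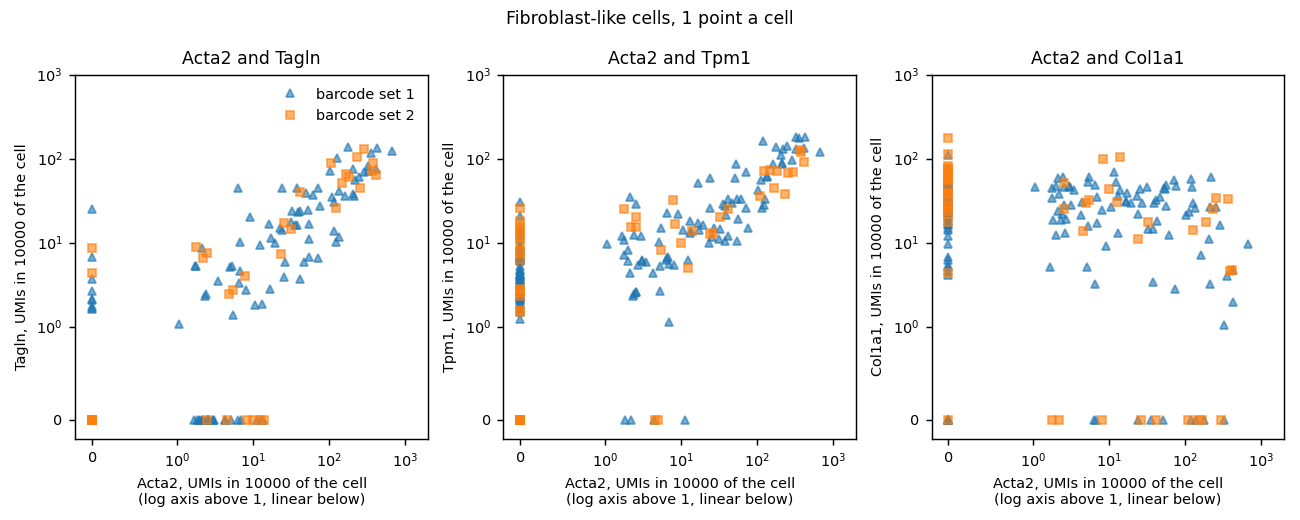
Acta2 against Tagln, Tpm1 and Col1a1 in the 221 fibroblast-like cells, as UMIs in 10000 of the cell on axes that are logarithmic above 1 and linear below. Tagln and Tpm1 increase with Acta2 (r of 0.88 and 0.79), and Col1a1 tends to be lower where Acta2 is higher (r of -0.32).

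Of a list of 30 further contractile and cytoskeletal genes, 26 were measured in the fibroblast-like comparison. Of these 20 were called higher, 2 lower and 4 neither, beside 11.7% of all measured genes higher and 19.1% lower. Their median log2 ratio was 1.72, beside -0.18 for all genes. Actg2, the γ-actin of visceral smooth muscle, had 316 UMIs in 26 fibroblast-like cells and 3 UMIs in all others. The actin-binding Cnn2 (505 CPM against 8.19) and Cald1 (1938 against 126) and the myosin kinase Mylk (115 against 2.06) were also high, as were Tpm4 (323 against 44.2), Csrp2 (600.5 against 67.7), Crip1 (248 against 19.6), Des (45.2 against 0.214), the leiomodin Lmod1 (27.7 against 0.642) and Vcl (60.6 against 8.16). Smaller ratios, from 1.92-fold (Myh10) to 5.22-fold (Smtn), were called for Myl6, Flna, Actn1, Actn4, Csrp1, Pdlim7, Tln1, Myh9, Myh10 and Smtn. Cnn3 (402 against 1010 CPM) and the caveolin Cav1 (13.3 against 28.5) were lower. Of the list genes with few UMIs, Myh11, the smooth muscle myosin heavy chain, had 4 UMIs in 3 cells, and Pln had none, nor did Myocd, the cofactor of serum response factor. The broadly expressed actins Actb (3364 against 2606) and Actg1 (2275 against 1708) passed in neither direction, and the striated muscle actins Acta1 and Actc1 had 2 and 1 UMIs.

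Among 18 regulators of this gene set, 15 were measured and 8 were called higher, with a median log2 ratio of 0.66. In the same comparison 11.7% of all measured genes were called higher. They were the TGF-β ligands Tgfb2 (162 against 44.3 CPM) and Tgfb3 (62.6 against 6.82), the receptor Tgfbr2 (33.9 against 2.06), the signal transducer Smad3 (30.8 against 11.03), the coactivators Yap1 (30.8 against 17.6) and Mkl1 (9.24 against 3.83), the Notch ligand Jag1 (12.3 against 1.15) and Klf4 (14.4 against 2.17). Of these, Mkl1, Jag1 and Klf4 had only 9, 12 and 14 UMIs in the fibroblast-like cells. In set 2 Mkl1 and Jag1 were at 5.08 CPM, the level of 1 UMI. Srf itself (11.3 against 9.31), Tead1 (59.5 against 45.8) and Wwtr1 (53.4 against 49.4) were called in neither direction. Of 8 genes known as targets of serum response factor, YAP or TGF-β, 7 were measured and 7 were higher (median 3.12), among them Fn1, a fibronectin of the matrix, at 643 against 60.8 CPM, Cyr61 at 149 against 67.6, Tgfbi at 114 against 0.723, Thbs1 at 99.6 against 1.15, and Ctgf and Postn with 38 and 29 UMIs inside and 2 and 3 outside.

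Markers of the cell types that could carry the 6 genes were read beside them, in the comparison where 11.7% of all measured genes were called higher. All 9 measured fibroblast markers were called higher (Col1a1 3018 against 3.67 CPM, Dcn 1815 against 2.62), which names the cluster and is no finding, and Dpt had no UMI. Of 5 measured mural markers 4 were higher, Vtn (438 against 0.482), Pdgfrb (72.9 against 1.93), Ndufa4l2 (57.5 against 15.3) and Rgs5 (32.8 against 2.97), and Notch3 was not called (14.4 against 18.9). The 9 mural markers summed to 645 CPM, against 40.1 in the other cells, and the 10 fibroblast markers to 9394 against 27.9. Of 5 measured endothelial markers Cdh5 (68.8 against 0.0803), Esam (24.6 against 0.241) and Flt1 (19.5 against 5.94) were higher, with no UMI of Cldn5 and Ly6c1 and 3 of Pecam1. Of 8 striated muscle markers 6 had no UMI there. The part of these cell types in the members' levels was not tested.

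To see what varied with the members inside the cluster, its cells were ranked by the share of their UMIs that came from the 6 genes and divided into 3 ranges of 74, 74 and 73 cells, a division chosen after seeing the data. The median share was 0.0364%, 0.145% and 1.80%, and the median depth 4254, 3935.5 and 4572 UMIs. The ranges are not cell types, since 49 cells lay within 1.5-fold of the lower boundary (0.0854%) and 26 of the upper one (0.387%). By construction the members rise over the ranges: Acta2 had 7, 95 and 4372 UMIs, Tagln 5, 51 and 1313, Myl9 11, 48 and 963, Tpm1 83, 277 and 1933, Tpm2 28, 78 and 363, and Cnn1 0, 2 and 159. Nearly all Acta2 and Cnn1 counts of the cluster thus came from the high range, whereas Tpm1 and Tpm2 were also present in the low one, in 68.9% and 32.4% of its cells.

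For genes other than the members, CPM was computed without the members' UMIs. Between the high and low ranges 13.3% of 4106 measured genes were called higher and 11.2% lower, with a median log2 ratio of -0.0036. Of 21 contractile list genes 18 were higher and none was lower (median 1.55). Actg2 had 316 UMIs in the high range (972 CPM) and none in the other 2, at least 106-fold higher than the low range when 3 counts are set as its floor. Des had 0, 2 and 42 UMIs (129 CPM in the high range, at least 14.0-fold), and Mylk had 1, 7 and 104. Cald1 went from 605 to 862 and 4370 CPM, Cnn2 from 110 to 287 and 1126, and Myl6 from 819 to 1024 and 3417. Csrp2, high in the cluster as a whole, was the one contractile gene with both sets lower in the high range (477 against 660 CPM) and was not called. The actins not called between clusters were higher here, Actb at 6147 against 1777 CPM and Actg1 at 3250 against 1663.

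Of 9 measured fibroblast markers 5 were lower in the high range, 1 was higher and 3 were not called. Col1a1 stood at 2128 against 3333 CPM, Dcn at 1138 against 2167 and Lum at 114 against 347, with Col1a2 and Col5a1 also lower, while Col3a1 (2107 against 1765) was not called and Ogn, an osteoglycin of connective tissue, was higher (92.3 against 12.3). Of 4 measured mural markers 3 were higher, Vtn (999 against 196 CPM), Pdgfrb (135 against 21.5) and Rgs5 (32 UMIs against 0). Of 7 measured regulators Tgfb3 was the one called (178 against 9.21 CPM, higher). Of 5 measured targets Cyr61 (397 against 27.6), Thbs1 (95 UMIs against 2) and Ctgf (35 UMIs against 2) were higher and Tgfbi was lower (40.0 against 166).

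Other measures also differed between the ranges. Of 12 measured cycling genes 7 were lower in the high range and none higher, and the cycling list summed to 1229 against 2463 CPM. This sum and the marker sums below were taken over all UMIs, those of the members included. The median mitochondrial share was 1.54% in the high and 2.15% in the low range. The 14 astrocyte markers summed to 658 against 1969 CPM, the 8 oligodendrocyte markers to 153 against 472, the 9 mural markers to 1316 against 288, the 10 fibroblast markers to 7006 against 10095 and the 8 endothelial markers to 144 against 147. The 8 progenitor markers summed to 736 against 472 CPM and the 7 ependymal markers to 212 against 120. Their part in the differences was not tested.

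**Figure D4:**
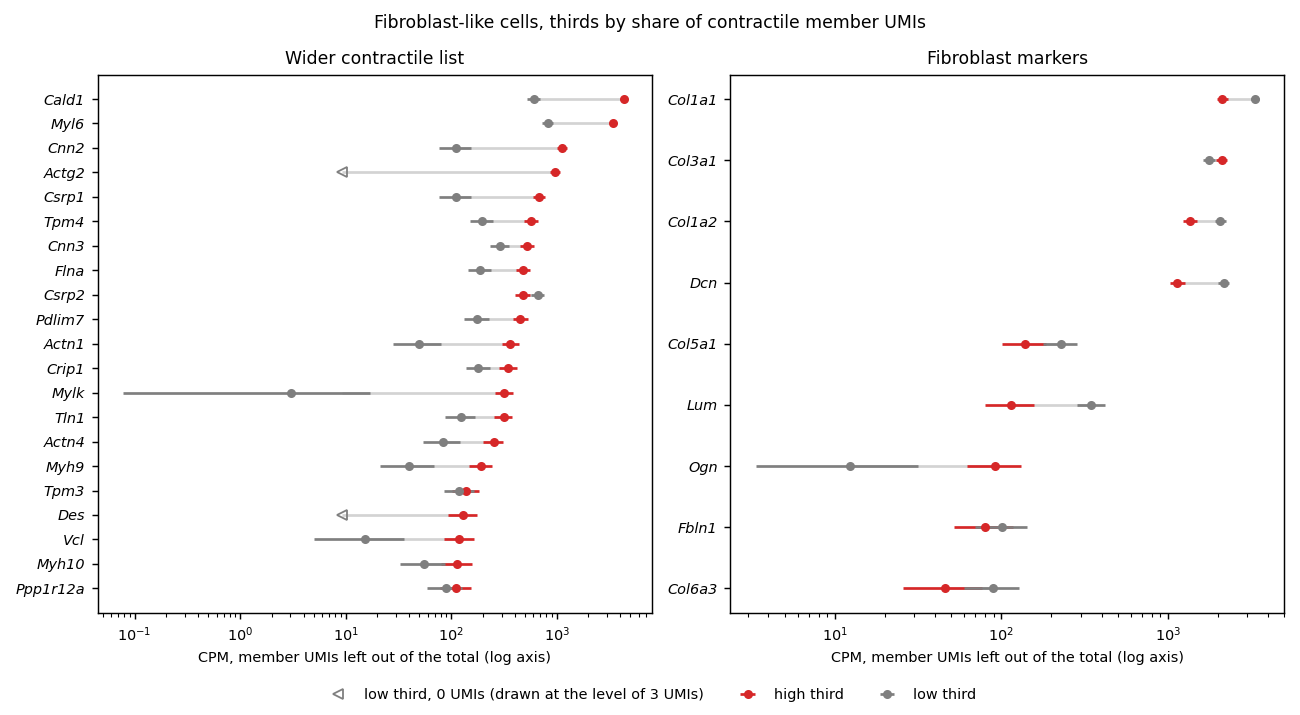
Level (CPM without the members' UMIs, log axis, exact Poisson 95% intervals) of the contractile list, left, and the fibroblast markers, right, in the fibroblast-like cells with the lowest (grey) and highest (red) share of member UMIs. The contractile genes lie higher in the high range apart from Csrp2, with Tpm3 and Ppp1r12a close together, and Col1a1, Col1a2, Dcn and Lum lie lower.

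Outside the fibroblast-like cluster the members did not move as one set. The other 10 clusters were each compared with the remaining cells that were not fibroblast-like, a choice made after seeing the data, because the fibroblast-like cells carried so much of each gene. In the Pcp4 astrocyte-like cells Acta2 (54.0 against 15.3 CPM, 3.53-fold) and Tagln (32.2 against 12.6) were called higher and Tpm2 (4.51 against 19.3) and Cnn1 (5.41 against 13.6) lower, that is 2 members higher and 2 lower where 22.3% of 12896 genes were higher and 13.8% lower. In the Cldn10 astrocyte-like cells Myl9 (159 against 63.5 CPM, 2.50-fold) and Cnn1 (20.6 against 7.63) were higher and Acta2 (17.9 against 30.1) lower, beside 16.8% of genes higher and 14.4% lower. The pair of astrocyte-like clusters thus differed in which members were called higher or lower, while both had UMIs of every member. The same direction in both barcode sets is part of the call rule.

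In both cycling-like clusters and the neuroblast-like cells, 5 members were lower and Tpm2 alone was higher. Tpm2 was 2.09-fold higher in the Hist1h1b cells, 1.82-fold in the Cdc20 cells and 1.68-fold in the neuroblast-like cells, where 14.9%, 11.6% and 9.98% of genes were higher and 38.5%, 36.6% and 30.5% lower. In the OPC-like cells Acta2, Tagln, Myl9 and Cnn1 were lower, beside 18.5% of genes lower and 5.77% higher, and neither tropomyosin was called. Cnn1 was higher in the ependymal-like cells (128 against 10.7 CPM, 20 UMIs; 11.0% of genes higher and 5.16% lower) and in the Car9 cluster (7.42-fold, 62 UMIs; 5.95%), where Tpm1 was also higher and Acta2 and Myl9 were lower (7.42% of genes lower). In the microglia-like cells Acta2, with no UMI, and Myl9, with 4, were called lower and none higher, beside 15.7% of genes lower and 5.36% higher.

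Cluster 8, which is unnamed, had 5 members higher (all but Myl9), beside 2.51% of genes higher and 30.8% lower. Its cells were the shallowest, with a median of 1089 UMIs, and 503 of its 549 cells were from set 1. Acta2 was at 130 CPM there and at 105 CPM (81.0 to 135) in the 635 barcodes left out for fewer than 500 genes; Tpm2 was at 40.5 and 48.5. Barcodes left out for mitochondrial share and for being called doublets had 48.5 and 57.8 CPM of Acta2. The part of depth in this cluster's values was not tested.

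Part of the Acta2 outside the fibroblast-like cells lay in few cells. There were 25 cells with at least 5 Acta2 UMIs, a cut chosen after seeing the data, 17 in set 1 and 8 in set 2, and 20 of them belonged to the Pcp4 astrocyte-like cluster. They held 234 of the 1001 Acta2 UMIs outside, with up to 21 in a cell. Tagln was found in 64% of them and in 3.58% of the other 12782 cells, and Myl9 in 68% and 18.0%, with median depths of 3532 and 2826 UMIs. None had a UMI of Col1a1, Col1a2, Col3a1, Dcn, Vtn, Tbx18 or Actg2, each found in 0.0235 to 0.876% of the other cells. The 25 cells were picked outside the cluster that the collagen genes and Dcn name, and at such low shares 25 cells could show none. These absences therefore do not tell what the cells are. Tpm2 had 1 UMI in all 25 cells. Gfap, an astrocyte filament gene, was found in 88% of them and in 82.1% of the rest.

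For the question of free RNA from the fibroblast-like cells, Acta2 was set against the summed UMIs of Col1a1, Col1a2, Col3a1 and Dcn. These numbered 5 to 99 in the other clusters. Unlike Acta2, these matrix genes were not held out of the clustering, and they name the fibroblast-like cluster. Cells rich in them tend to be sorted out of the other clusters, which can raise the ratio there whatever the source of Acta2. The ratio of Acta2 to these matrix UMIs was 0.529 (0.510 to 0.549) in the fibroblast-like cells. The intervals overlapped that value in the Hist1h1b cycling-like cells (0.477, 0.270 to 0.820), the Cdc20 cycling-like cells (0.840, 0.447 to 1.56), the OPC-like cells (0.923, 0.507 to 1.67) and the Car9 cluster (0.417, 0.115 to 1.27, from 5 and 12 UMIs). They lay above it in the neuroblast-like cells (1.55, 0.878 to 2.77), the Cldn10 astrocyte-like cells (1.85, 1.44 to 2.39), cluster 8 (4.50, 2.75 to 7.72), the ependymal-like cells (4.80, 1.80 to 16.1, from 24 and 5 UMIs) and the Pcp4 cells (6.89, 5.49 to 8.72). The microglia-like cells had 58 matrix UMIs and none of Acta2. All these intervals cover counting error only. In the fibroblast-like cells the ratio was lower in set 1 and higher in set 2, both outside the interval given. There Acta2 was at 4126 CPM in set 1 and 6432 in set 2, and Col1a1 at 2937 and 3338. In those cells 22 cells held 74.4% of the Acta2 UMIs. Of the 24 ependymal-like Acta2 UMIs, 19 lay in 2 cells. The matrix UMIs outside the fibroblast-like cells were uneven too. A single cell held 22 of the 137 Col1a1 UMIs, and a single cell held 21 of the 102 Col1a2 UMIs. The part of free RNA in these levels was not tested. The Acta2 share of cells after thinning was 3.85% (3.24 to 4.53%) in the Pcp4 cells and 0.280% (0.0764 to 0.716%) in the Hist1h1b cells.

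Tagln was found more often in astrocyte-like cells with Acta2 than in those without. In the Pcp4 cluster Tagln was found in 16.7% (12.9 to 21.2%) of the 329 cells with Acta2 and in 5.26% (4.53 to 6.07%) of the 3327 without. After thinning the shares were 6.52% (9 of 138 cells) and 2.23%, and the intervals still do not overlap. In the Cldn10 cluster the shares were 17.1% of 140 and 4.02% of 3158 cells, and 8.47% (5 of 59 cells) and 1.57% after thinning. Myl9 was found in 39.8% of the Pcp4 cells with Acta2 and in 22.4% of those without. After thinning its shares were 15.2% (9.67 to 22.3%) and 8.94% (8.01 to 9.94%), and these intervals overlap. For the other members the intervals in the Pcp4 cells overlapped before and after thinning. Before it, the shares were 43.2% and 36.2% for Tpm1 and 3.34% and 1.26% for Cnn1. Those of Tpm2 were 0.912% (0.188 to 2.64%) and 1.32% (0.963 to 1.77%). In the fibroblast-like cells Tagln was found in 76.1% of the cells with Acta2 and in 10.6% of those without.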

How the data were processed

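The deposited matrix pools all barcodes and holds unnormalised UMI counts as whole numbers; per the submitters' processing notes the authors used Cell Ranger 2.1.1 and mm10. Further steps are not given in the sources used here. Barcodes with fewer than 500 genes (635) or over 10% mitochondrial UMIs (912) were left out, 1407 in all, then Scrublet doublets, 239 in set 1 and 11 in set 2 (0.323% of its cells, so doublets may remain there). Scanpy 1.11.5 gave 2000 variable genes, without the members and the contractile list, 30 components, 15 neighbours and Leiden clusters at resolution 0.5 (python-igraph 0.11.9). A cluster was named from 14 marker lists if at least 3 markers had 10 or more UMIs and 2-fold higher CPM there, unless markers of another class outnumbered its own among the 10 leading genes.

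UMIs were summed per cluster into CPM. Measured genes had 30 or more UMIs; log2 ratios used CPM + 5; a call needed 1.5-fold over both barcode sets together, the same direction in each set, and the other CPM outside the Poisson interval. The genes named are the members, the called genes and 3 most abundant genes of each list, the measured markers, and the 5 genes most like each member; others were named after their values were seen. The leading gene of cluster 8 and the values of 1 list gene are not reported here. Members and lists were chosen with earlier results of these data known. Positions are from GENCODE M21, which held 98.8% of the gene IDs. Python 3.11.15, numpy 2.4.6, scipy 1.17.1, pandas 2.3.3, scikit-learn 1.9.0 and matplotlib 3.10.9 were used.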

Additional observations from a re-analysis of the deposited data

How the results depend on the processing

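The fibroblast-like cluster was found under every clustering setting tried, with 220 to 224 cells. Against 10047 CPM, the members' joint level there was 9812 CPM with cells thinned to 1000 UMIs, 9425 as a mean over cells, and, in alternatives chosen after seeing the data, 3862 without the 22 cells with most member UMIs, 9157 in barcode set 1 and 13561 in set 2. The cluster's share of member UMIs, 46.2%, was 44.7% with no cell filter, 37.0% thinned, 22.5% without those 22 cells and 47.2% in set 2. The share of its cells with 3 or more members, 54.3%, was 33.5% thinned. The call was kept by 6 members under every other alternative in which calls were counted and by 5 without the 22 cells; 18 to 23 contractile list genes were called. Over both sets together no direction reversed: the Acta2 log2 ratio ranged from 5.40 to 7.61 and that of Cnn1 from 1.39 to 3.98. Within set 2 alone and without the 22 cells, Cnn1 was at 6.25 CPM against 7.91 in the other cells. Of the other values, 46 for the cluster as a whole and 111 for single members stayed within the main value's counting interval or 1.5 times it, and 27 for single members moved. Depth limits rare genes: the interval for a count of 0 in the 221 cells reaches 3.79 CPM. No paired analysis was possible because the barcodes are not tied to a library and no group has replicates.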
